A study of Mus musculus with 6 samples.

Results

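The variable segments of the T cell receptor alpha chain (Trav) and beta chain (Trbv) were examined in CD4+ and CD8+ spleen cells. They were taken as the rows of the table whose name starts with Trav or Trbv and a digit and whose values sum to at least 11 over the 6 libraries. This gave 89 of 17832 genes, of which 66 were alpha segments and 23 were beta segments, and all 89 rows with such a name met the threshold. The lowest sum was that of Trav6d-3, with 12 reads in all, followed by Trav4-2 with 14, and the lowest beta segment was Trbv21, also with 14.

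The cells came from the spleens of C57BL/6 mice that had received angiotensin II, a peptide hormone that raises blood pressure, from osmotic mini-pumps under the skin. Cells positive for CD4 or for CD8 were sorted by flow cytometry, and poly(A) RNA was sequenced with a stranded kit. There were 3 CD4 libraries, numbered 385, 393 and 395 in the labels, and 3 CD8 libraries, numbered 389, 395 and 387. Both groups carry the treatment and the strain, and no untreated library was used here, so segment use is compared between the sorted populations and not with a state without angiotensin II. The age of the mice and the further gates of the sort are not stated in the labels. The labels do not state that a number marks a mouse, so the p-values measure the spread between these libraries only.

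A T cell receptor chain is made from a variable, a joining and, in the beta chain, a diversity segment, which recombination brings together in the thymus and which splicing then links to a constant region. The variable segment encodes most of the receptor's outer domain, including the loops that mainly touch the MHC molecule. CD4 T cells recognise peptides on MHC class II and CD8 T cells on MHC class I, so the segments that the 2 populations use can be set side by side.

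Total reads per library ranged from 10264246 to 14628599. The 66 alpha segments held 926, 1211 and 1029 reads in CD4 385, 393 and 395, and 328, 723 and 849 reads in CD8 389, 395 and 387. The 23 beta segments held 2130, 3139 and 2676 reads in the CD4 libraries and 1076, 1946 and 2497 in the CD8 libraries. CD8 389 thus had the fewest receptor reads of both chains. Each library carried the coreceptor of its label: Cd4 lay between 4065 and 6313 normalised reads in CD4 and between 38.9 and 162.8 in the CD8 libraries, while Cd8a lay between 7.45 and 36.8 in CD4 and between 3871 and 10001 in the CD8 libraries.

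The 3′ ends of 8 beta segments are shown because these segments had the largest differences of mean log2 share, 4 in each direction, among segments with a mean value of at least 50 and separate ranges. They are mouse reference sequences on chromosome 6 from the GENCODE M21 transcripts (GRCm38 build), each 58 bases long and written 5′ to 3′. The capitals mark the codon of the conserved cysteine that ends the framework of the variable domain, after which the junction with the diversity and joining segments begins. The first 4 had the higher share in CD8 and the last 4 the higher share in the CD4 libraries.
Trbv12-1: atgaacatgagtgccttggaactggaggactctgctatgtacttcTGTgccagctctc
Trbv17: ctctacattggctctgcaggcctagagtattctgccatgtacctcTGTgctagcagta
Trbv29: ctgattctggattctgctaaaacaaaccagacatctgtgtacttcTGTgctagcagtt
Trbv14: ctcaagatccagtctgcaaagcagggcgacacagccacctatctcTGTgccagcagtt
Trbv3: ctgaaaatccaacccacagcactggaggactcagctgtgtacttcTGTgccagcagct
Trbv20: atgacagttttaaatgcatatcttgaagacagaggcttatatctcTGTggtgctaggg
Trbv2: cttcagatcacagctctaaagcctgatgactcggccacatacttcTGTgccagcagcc
Trbv31: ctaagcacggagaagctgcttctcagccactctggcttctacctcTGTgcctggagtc

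Segment use is the share of 1 segment in all alpha or all beta segment reads of its library, in percent. A share does not depend on how many T cell receptor reads a library held in total, whereas the level, the normalised read count, does. Wilson 95% intervals extended at most 2.07 percentage points from a beta share and at most 2.96 from an alpha share, and they cover counting error only. The fold change of use is the log2 difference, CD8 minus CD4, after every gene of a library was divided by the summed segments of the chain, with a standard error (SE) from the moderated limma fit over 13877 genes. It was fitted on log2(value + 1), which understates the change of low segments. The moderated SE and the limma adjusted p of use were set over all these divided genes and not over the segments alone. A segment that did not pass is therefore left undecided.

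Beta segment use stood apart between the sorted populations. Of the 23 beta segments, 6 had a share that was higher in all 3 CD8 libraries than in any CD4 library (Trbv12-1, Trbv12-2, Trbv14, Trbv16, Trbv17 and Trbv29), 10 had a share that was higher in all 3 CD4 libraries (Trbv1, Trbv2, Trbv3, Trbv4, Trbv15, Trbv19, Trbv20, Trbv23, Trbv26 and Trbv31), and the ranges of 7 overlapped. The first set made up 21.6% of beta reads on average in the CD4 libraries and 41.3% in the CD8 libraries, and the second set 52.6% and 33.1%, values that follow from how the sets were formed. On the same scale, 11.3% of the 13877 genes tested were higher in all CD8 libraries and 1.77% in all CD4 libraries. These all-gene shares are shifted by the division by the summed beta segments and are not a neutral background. No single beta segment passed the limma test of use at an adjusted p under 0.05. Of the 21 tested, 6 had an unadjusted p under 0.05 (Trbv12-1, Trbv14, Trbv17, Trbv29, Trbv2 and Trbv31). The test took its SE and its adjustment from the 13877 genes, all shifted by the division. It thus cannot decide whether the use of a segment that did not pass differs. How many of all genes had an unadjusted p under 0.05 on this scale was not computed for any tool.

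**Figure D1:**
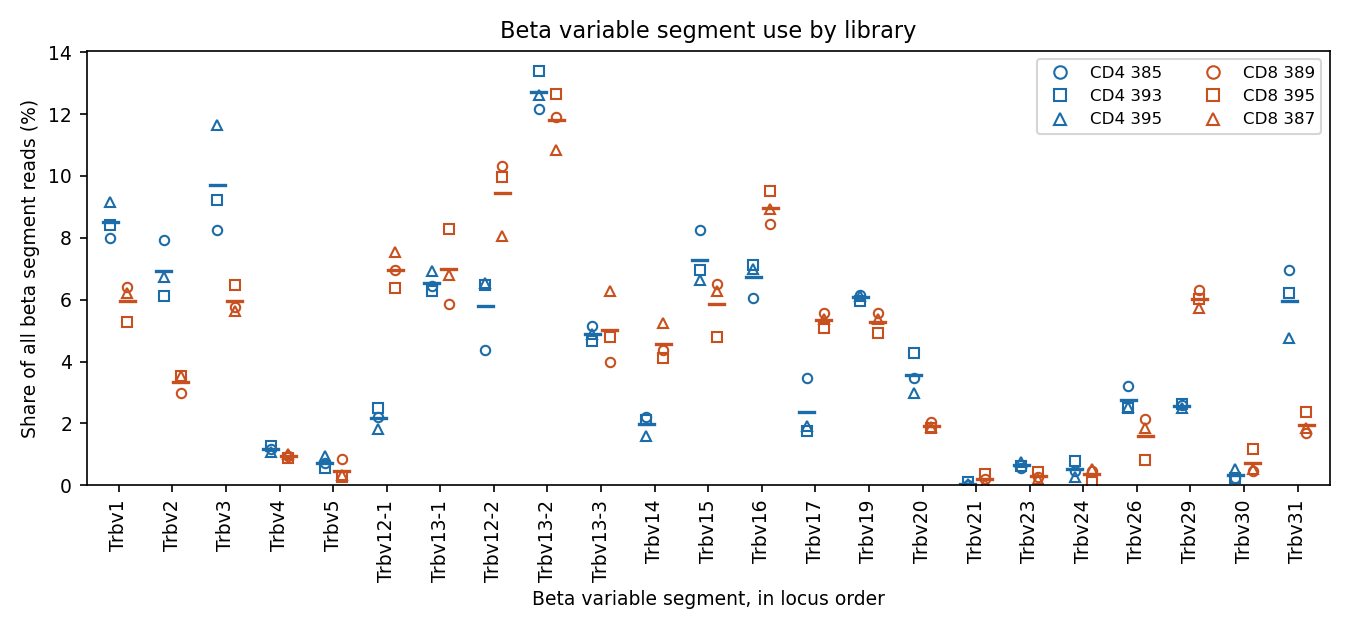
Share of each beta variable segment in all beta segment reads of a library (percent, vertical axis) for the 23 segments in locus order (horizontal axis); open symbols are the 3 CD4 (blue) and 3 CD8 (orange) libraries and bars are group means. Trbv12-1, Trbv14, Trbv17 and Trbv29 sit higher in all CD8 libraries, Trbv2, Trbv3, Trbv20 and Trbv31 sit higher in all CD4 libraries, and Trbv13-2 is the highest segment in every library.

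Trbv12-1, which encodes the segment once named Vβ5.2, had the widest difference toward CD8 on the log2 scale. Its shares were 2.21%, 2.48% and 1.83% in CD4 385, 393 and 395, and 6.97%, 6.37% and 7.53% in CD8 389, 395 and 387. Every CD8 library lay above every CD4 library, and the mean was 6.96% ± 0.58 (SD, n = 3) against 2.17% ± 0.33, a ratio of 3.20. The log2 fold change of use was 1.66 (SE 0.42, limma adjusted p = 0.132). DESeq2 on the recovered reads called it, with an adjusted p of 0.039. Over the settings tried its log2 fold change ranged from 1.55 to 1.76 and its adjusted p from 0.039 to 0.679.

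Trbv12-2 (Vβ5.1), the other segment of the same subgroup, is 87.65% identical to Trbv12-1 over the 243 bases that end at the cysteine codon, compared without gaps. It stood at 4.37%, 6.47% and 6.54% in CD4 and at 10.3%, 9.97% and 8.05% in the CD8 libraries, again without overlap. The log2 fold change of use was 0.72 (SE 0.42, limma adjusted p = 0.43). Together both members of the Trbv12 subgroup held 7.97% ± 1.24 of beta reads in CD4 and 16.4% ± 0.86 in the CD8 libraries (SD, n = 3).

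Trbv29 (Vβ7) had the most even shares within the groups among segments with a mean value of at least 50. The CD4 libraries stood at 2.58%, 2.61% and 2.50%, and the CD8 libraries at 6.32%, 6.01% and 5.73%. The ranges were far apart compared with the spread within each group, with means of 2.57% ± 0.06 and 6.02% ± 0.30 (SD, n = 3). Wilson intervals of these shares extended up to 1.61 percentage points, so this spread is smaller than counting error. Its log2 fold change of use was 1.21 (SE 0.41, limma adjusted p = 0.42).

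Trbv17 (Vβ9) stood at 3.47%, 1.75% and 1.91% in CD4 and at 5.58%, 5.09% and 5.37% in the CD8 libraries. CD4 385 was the highest of its group, still below every CD8 library, and the log2 fold change of use was 1.22 (SE 0.45, limma adjusted p = 0.43). Trbv14 (Vβ13) stood at 2.21%, 2.10% and 1.61% against 4.37%, 4.11% and 5.25%. Its groups did not overlap either, with a log2 fold change of 1.20 (SE 0.43, limma adjusted p = 0.43). Trbv16 (Vβ11) held a larger share in both groups, 6.73% ± 0.59 in CD4 and 8.96% ± 0.53 in the CD8 libraries (SD, n = 3), a ratio of 1.33.

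In the opposite direction, Trbv31 (Vβ14), which lies beyond the constant regions of the beta locus and joins them by inversion, had the widest difference on the log2 scale. Its shares were 6.95%, 6.21% and 4.75% in CD4 385, 393 and 395, and 1.67%, 2.36% and 1.84% in CD8 389, 395 and 387. Each CD4 library was above each CD8 library, and the mean was 5.97% ± 1.12 against 1.96% ± 0.36 (SD, n = 3), a ratio of 3.05. The log2 fold change of use was -1.58 (SE 0.43, limma adjusted p = 0.186).

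Trbv2 (Vβ4) stood at 7.93%, 6.12% and 6.73% in CD4 and at 2.97%, 3.55% and 3.52% in the CD8 libraries. The groups did not overlap, and the log2 fold change of use was -1.03 (SE 0.41, limma adjusted p = 0.43). Trbv20 (Vβ15) stood at 3.47%, 4.27% and 2.99% against 2.04%, 1.85% and 1.88%, with a log2 fold change of -0.86 (SE 0.43, limma adjusted p = 0.43). Trbv3 (Vβ16) stood at 8.26%, 9.21% and 11.7% against 5.76%, 6.47% and 5.65%. CD4 395 held the highest Trbv3 share, and the log2 fold change was -0.69 (SE 0.41, limma adjusted p = 0.43).

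Trbv13-2 (Vβ8.2) was the most used beta segment in each of the 6 libraries. Its shares were 12.2%, 13.4% and 12.6% in CD4 and 11.9%, 12.6% and 10.9% in the CD8 libraries, so the groups overlapped. It also ranked first when reads were divided by transcript length, with 14.1% of the per-length total, ahead of Trbv12-2 with 7.71% and Trbv16 with 7.70%. The limma fold change of use was -0.11 on the log2 scale, with a 95% interval from -0.997 to 0.78. The width of this interval comes from an SE of 0.41 that is moderated over all genes. From the 6 libraries of Trbv13-2 alone, the difference in mean log2 share was -0.11 with an SE of 0.08. The Trbv13 subgroup, which also holds Trbv13-1 (Vβ8.3) and Trbv13-3 (Vβ8.1), took 24.2% ± 0.36 of beta reads in CD4 and 23.8% ± 1.98 in the CD8 libraries (SD, n = 3).

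In mice, Trbv13, Trbv29 and Trbv1 pair with the invariant Trav11 chain of natural killer T cells, and Trbv13 and Trbv19 with the invariant Trav1 chain of mucosal-associated invariant T cells. Trbv1 (Vβ2) stood at 7.98%, 8.41% and 9.16% in CD4 and at 6.41%, 5.29% and 6.21% in the CD8 libraries, while Trbv19 (Vβ6) stood at 6.15%, 5.96% and 6.13% against 5.58%, 4.93% and 5.37%. Both were higher in each CD4 library, by mean ratios of 1.43 and 1.15, and neither passed the test. Trav1 held at most 0.61% of alpha reads in any library, with 23 reads in all, and Trav11 with its copies was not analysed here.

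Among the less used beta segments, Trbv4, Trbv5, Trbv21, Trbv23, Trbv24 and Trbv30 each had a mean share of about 1% or less over the 6 libraries, and Trbv26 had 2.17%. Trbv24 is annotated as a pseudogene in GENCODE M21 and had 0.51% ± 0.27 in CD4 and 0.36% ± 0.23 in the CD8 libraries (SD, n = 3). Trbv21 had 0 reads in CD4 385, which allows up to 2.57 normalised reads there, and at most 8.13 normalised reads in any library. Trbv21 and Trbv24 did not reach the value of 10 in at least 3 libraries that the test required. The ranges of Trbv15 (Vβ12), a more used segment, also did not overlap: it held 7.29% ± 0.86 in CD4 and 5.86% ± 0.94 in the CD8 libraries (SD, n = 3), with its lowest CD4 library at 6.65% and its highest CD8 library at 6.51%.

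Among the 21 beta segments tested, 6 (28.6%) were higher in all CD8 and 10 (47.6%) were higher in all CD4 libraries, where 11.3% and 1.77% of all genes were so on the same scale. On this scale all genes had a median log2 fold change of 0.68, because the summed beta segments were lower in the CD8 libraries, and the median of the tested beta segments was -0.20. The all-gene shares are shifted by this division and are not a neutral background. Limma called 0.93% of all genes on this scale and 0 of the 21 beta segments. The quasi-likelihood test of edgeR, run on whole reads, also called 0 of 21, with 6 at an unadjusted p under 0.05, and DESeq2 called 1, Trbv12-1. Of the 13877 genes on this scale, edgeR called 103 and DESeq2 231. When the beta segments alone were rescaled and all other genes were left as deposited, a setting chosen after the data were seen, limma called 1 of 21, Trbv12-1 with an adjusted p of 0.046. Limma called 69 of the 13877 genes under that setting. The limma adjusted p of other segments moved in both directions: for Trbv29 from 0.42 to 0.087 and for Trbv1 from 0.43 to 0.77. The limma adjusted p of use thus depended on how the other genes were scaled.

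The SE of the moderated fit was wide compared with the scatter of the shares. For the 16 beta segments with a mean value of at least 50 it lay between 0.40 and 0.45, while the SE of the difference in mean log2 share, computed from the 6 libraries of each segment alone, lay between 0.04 and 0.31 with a median of 0.15. Trbv29 had the narrowest of these, with a difference of 1.23 and an SE of 0.04 on the log2 share scale. For Trbv12-1 the same values were 1.69 and 0.15, and for Trbv31 they were -1.60 and 0.22. The Trbv29 SE is the lowest of 16 and rests on 532 reads in all. Wilson intervals of its shares extended up to 1.61 percentage points, against SDs of 0.06 and 0.30 within the groups. This SE is thus smaller than counting error allows for and does not measure the precision of the Trbv29 difference.

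**Figure D2:**
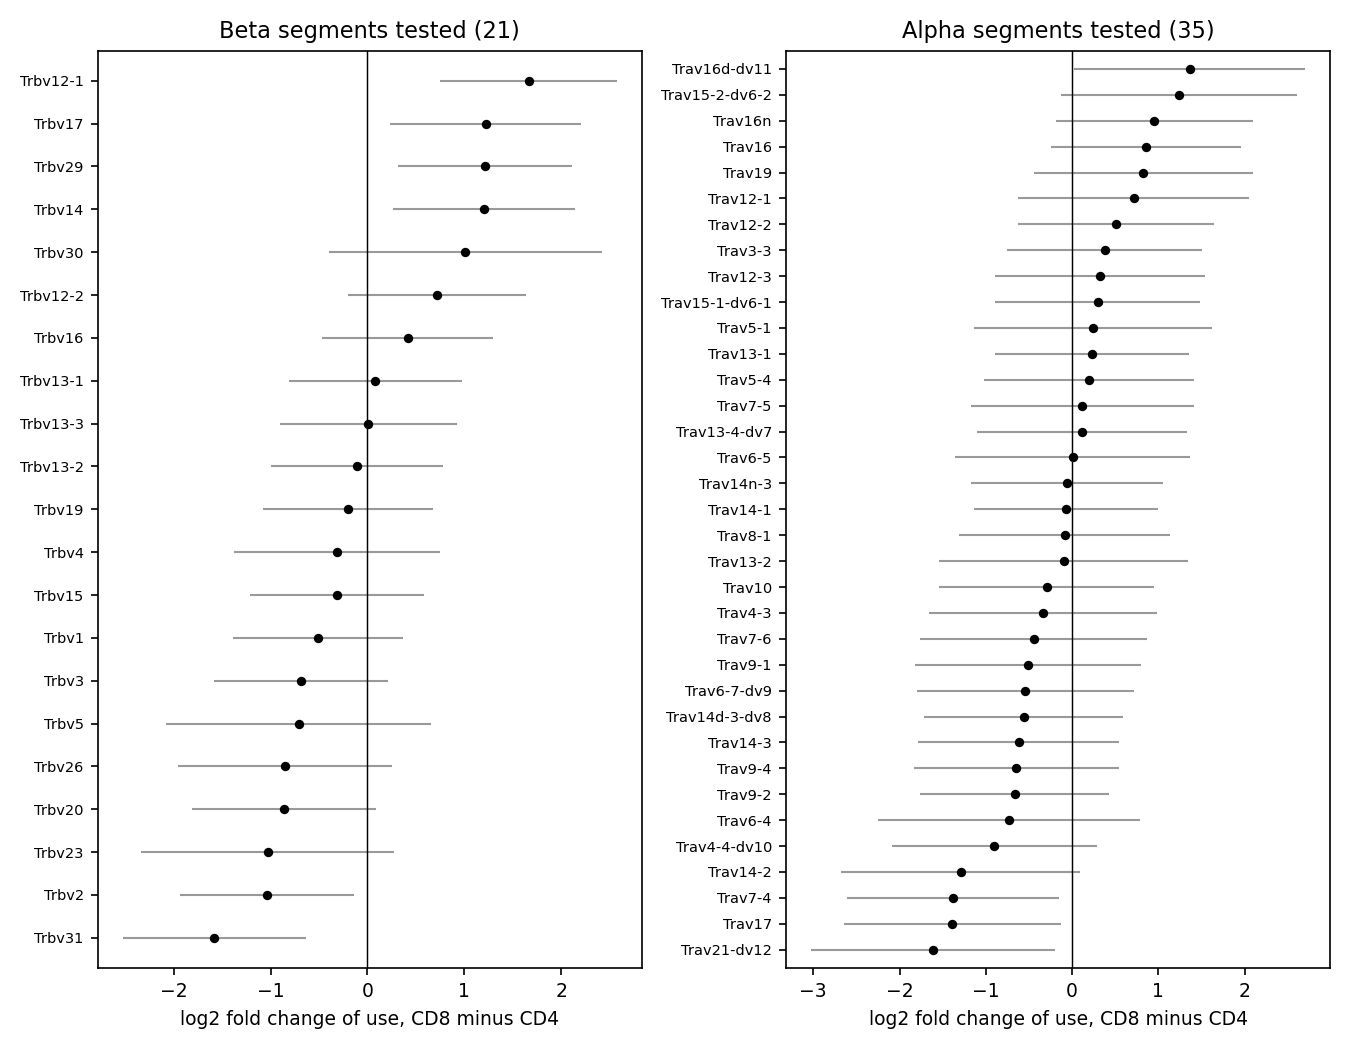
Log2 fold change of segment use, CD8 minus CD4 (horizontal axis), for the 21 beta (left) and 35 alpha (right) segments tested; points are limma estimates and lines their 95% intervals without adjustment for the number of tests. Intervals of Trbv12-1, Trbv17, Trbv29 and Trbv14 lie above 0 and those of Trbv2 and Trbv31 below 0.

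Whole beta profiles were closer within than between the sorted populations. The distance between 2 libraries was the Bray-Curtis distance of their shares, the percentage of use that is not held in common. It was 7.60% on average within the CD4 libraries (range 5.98% to 9.37%, 3 pairs), 7.55% within the CD8 libraries (6.06% to 8.60%, 3 pairs) and 21.6% between the groups (20.1% to 23.8%, 9 pairs). Every pair across groups was more distant than every pair within a group. The mean between-group minus within-group distance was 13.997 percentage points, with an exact permutation p of 0.1, the smallest that 3 against 3 libraries allow. The pair that shares the label number 395, CD4 395 and CD8 395, had a beta distance of 22.0%, as far apart as pairs with different numbers.

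Beta differences across groups exceeded counting error. Chi-square per degree of freedom of the beta reads lay between 0.995 and 3.31 for pairs within a group and between 11.7 and 18.7 for pairs across groups. Over all genes with at least 100 reads in a pair, it was at least 25.4 for every pair of libraries. Counting error was thus exceeded over all genes too, and exceeding it is not particular to the beta segments. The beta segments were held to a lower read limit, so the sizes of the beta and all-gene values cannot be compared. CD8 389 and CD8 387 gave the lowest beta value.

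**Figure D3:**
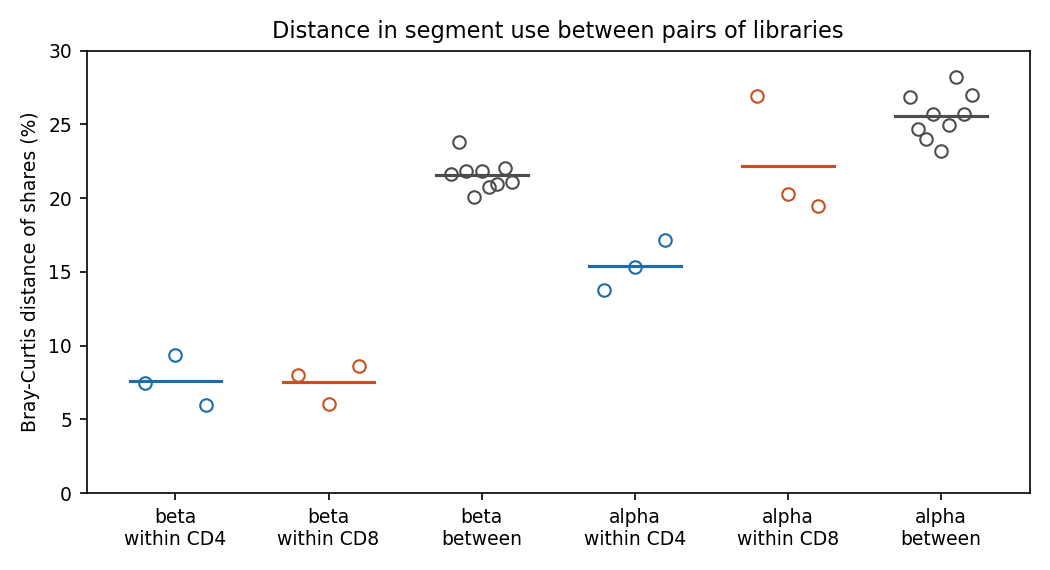
Bray-Curtis distance of segment shares (percent, vertical axis) for each pair of libraries, within the CD4, within CD8 and between the groups, for beta and alpha segments (horizontal axis); circles are pairs and lines their means. Beta distances between groups (20.1% to 23.8%) lie apart from those within groups (5.98% to 9.37%), while alpha distances between groups overlap those within CD8.

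The alpha segments were spread over many more genes with fewer reads each. No alpha segment reached a mean value of 50, and the most used one, Trav14n-3, held 4.26% of alpha reads on average. Of the 66 alpha segments, 35 reached a value of 10 in at least 3 libraries and were tested. The ranges of share did not overlap for 17 of the 66, with 11 at higher shares in CD8 and 6 at higher shares in CD4. On the same scale 32.4% and 1.17% of the 13877 genes tested were so, shares that are shifted by the division. Limma called 1.1% of all genes after rescaling to the summed alpha segments and 0 of the 35 alpha segments. Of these 35, 4 had an unadjusted p under 0.05 (Trav7-4, Trav17, Trav21-dv12 and Trav16d-dv11). Here too the SE and the adjustment came from all genes after the division, so segments that did not pass are left undecided. EdgeR called 0 with 5 at an unadjusted p under 0.05, and DESeq2 called 0 with 3. How many of all genes had an unadjusted p under 0.05 on this scale was not computed.

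Of the 35 tested, 5 (14.3%) were higher in all CD8 and 6 (17.1%) were higher in all CD4 libraries, where 32.4% and 1.17% of all genes were so. All genes had a median log2 fold change of 0.93 on this scale, since the alpha segments too summed to less in the CD8 libraries, and the median of the tested alpha segments was -0.07. The share of alpha segments higher in CD8 was below that of all genes, and the share higher in CD4 above it. Both follow largely from the division by the summed alpha segments, so they are no result about alpha segment use.

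Summed by subgroup, the 66 alpha segments fell into 19 subgroups. Among these, 7 were higher in all CD8 libraries (Trav1, Trav3, Trav12, Trav15, Trav16, Trav18 and Trav19), 6 were higher in all CD4 libraries (Trav4, Trav7, Trav9, Trav14, Trav17 and Trav21) and 6 overlapped. The counts of subgroups higher in CD8 and in CD4 are 36.8% and 31.6% of the subgroups. On this scale 32.4% and 1.17% of all single genes were so, shares that are shifted by the division. The share of subgroups higher in CD8 was near that of all genes. The subgroup values are descriptions of the libraries and were not tested.

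The Trav16 subgroup, 3 near-identical copies, had the widest difference of group means among the alpha subgroups, though the gap between its ranges was smaller than that of Trav9 or Trav14. It held 4.86%, 5.95% and 4.76% of alpha reads in CD4 385, 393 and 395, and 11.6%, 8.16% and 12.5% in CD8 389, 395 and 387. All CD8 libraries lay above all CD4 libraries, with means of 10.7% ± 2.28 and 5.19% ± 0.66 (SD, n = 3). Each copy went the same way: Trav16 stood at 3.93% ± 0.45 in CD8 and 2.11% ± 0.11 in the CD4 libraries, Trav16n at 4.67% ± 1.31 and 2.32% ± 0.53, and Trav16d-dv11 at 2.14% ± 0.54 and 0.76% ± 0.25. The log2 fold changes of use were 0.85, 0.95 and 1.36 with SEs of 0.51, 0.52 and 0.61, and the limma adjusted p was 0.245 for each.

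The copies are shown to display how little sequence separates them, over the 103 bases that end at the cysteine codon, from chromosome 14 in the same reference. Capitals mark the 4 positions at which the 3 copies differ. Between pairs the identity was 97.94%, 98.35% and 98.77% over 243 bases, so how reads were divided among the copies is uncertain, and the subgroup total is the firmer value.
Trav16: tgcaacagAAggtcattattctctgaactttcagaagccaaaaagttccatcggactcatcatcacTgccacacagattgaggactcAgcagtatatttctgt
Trav16d-dv11: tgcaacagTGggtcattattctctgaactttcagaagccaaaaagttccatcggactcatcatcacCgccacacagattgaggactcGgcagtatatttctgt
Trav16n: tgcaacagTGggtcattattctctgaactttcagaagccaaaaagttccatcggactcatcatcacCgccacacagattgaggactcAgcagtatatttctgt

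Among the reads counted, the Trav14 subgroup was the most used in every library. Subgroup totals depend on which copies had a row. Some copies of Trav14 and Trav12 had none, while all 3 copies of Trav16 had one. It held 19.5%, 17.7% and 20.9% of alpha reads in CD4 and 14.3%, 15.2% and 14.6% in the CD8 libraries. The groups did not overlap, with means of 19.4% ± 1.62 and 14.7% ± 0.45 (SD, n = 3). Of its 5 members, Trav14-2 stood at 4.10%, 4.38% and 3.11% in CD4 and at 0.61%, 1.66% and 3.06% in the CD8 libraries, and its ranges alone did not overlap. Trav14-3 averaged 3.44% in CD4 and 2.24% in CD8, Trav14d-3-dv8 3.67% and 2.54%, Trav14n-3 4.26% and 4.25%, and Trav14-1 4.14% and 3.91%. CD8 389 had the lowest Trav14-2 share and CD8 387 nearly reached the lowest CD4 library, and the Trav14-2 log2 fold change of use was -1.29 (SE 0.63, limma adjusted p = 0.245). Whether the members differ from each other was not tested.

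The genes Trav14-3, Trav14d-3-dv8 and Trav14n-3 are copies of each other, and they are shown over the same 103 bases because the highest alpha segment is among them. Capitals mark the 5 positions at which they differ, and their identity over 243 bases was 96.71% to 98.35%.
Trav14-3: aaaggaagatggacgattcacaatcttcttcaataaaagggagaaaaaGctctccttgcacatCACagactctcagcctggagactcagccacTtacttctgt
Trav14d-3-dv8: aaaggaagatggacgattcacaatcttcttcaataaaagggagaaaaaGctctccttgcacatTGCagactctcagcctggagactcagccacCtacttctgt
Trav14n-3: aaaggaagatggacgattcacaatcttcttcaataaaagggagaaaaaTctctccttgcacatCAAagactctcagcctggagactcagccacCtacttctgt

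**Figure D4:**
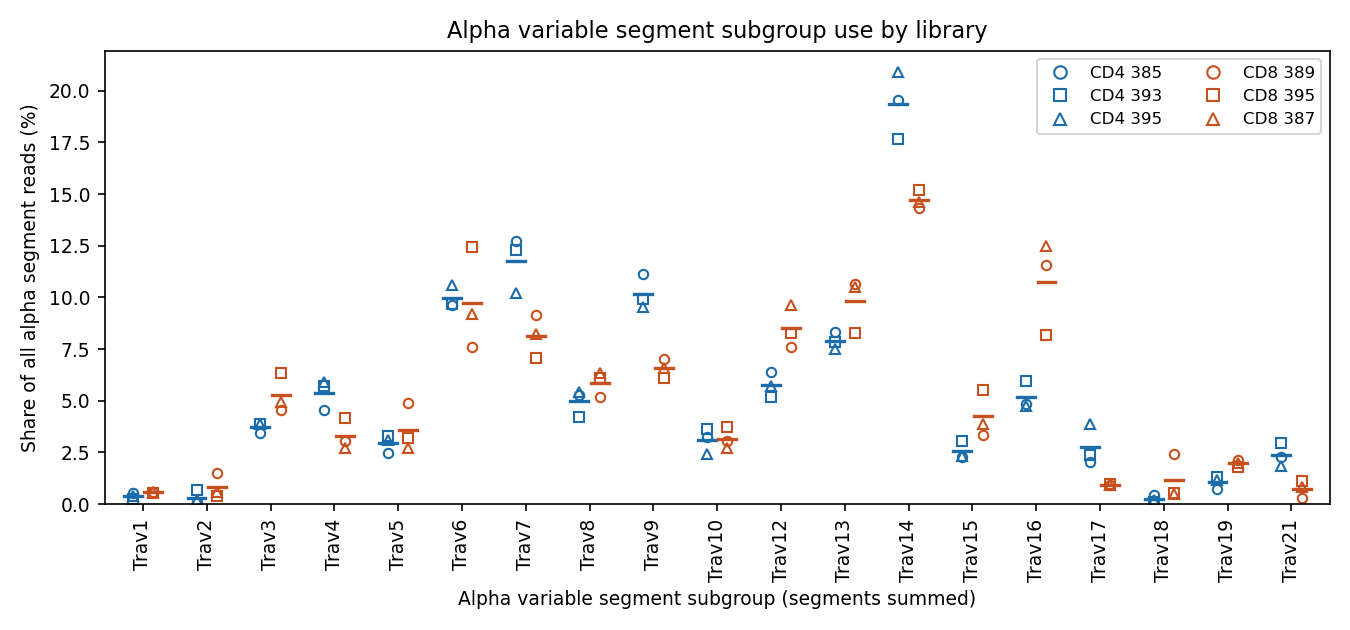
Share of each alpha variable subgroup in all alpha segment reads of a library (percent, vertical axis) for the 19 subgroups (horizontal axis); open symbols are the 3 CD4 (blue) and 3 CD8 (orange) libraries and bars are group means. Trav16 and Trav12 sit higher in all CD8 libraries, and Trav14, Trav9, Trav7 and Trav4 sit higher in all CD4 libraries.

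Other larger subgroups with separate ranges were Trav9 with 10.2% ± 0.83 in CD4 and 6.56% ± 0.46 in the CD8 libraries, Trav7 with 11.8% ± 1.36 and 8.15% ± 1.05, Trav12 with 5.77% ± 0.59 and 8.53% ± 1.04, and Trav4 with 5.39% ± 0.75 and 3.30% ± 0.75 (SD, n = 3). Trav6 overlapped, with 9.96% ± 0.55 and 9.75% ± 2.46, and Trav13 overlapped as well, with 7.88% ± 0.42 and 9.82% ± 1.32. Among the most used single segments, Trav9-2 stood at 4.00%, 3.55% and 4.28% in CD4 and at 2.13%, 2.49% and 2.71% in the CD8 libraries. Among alpha segments it ranked 5 by share but 16 when reads were divided by transcript length. Its ranges were separate, while those of Trav12-2 and Trav13-1 overlapped.

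Some single alpha segments outside the naming rule are given because their unadjusted p was under 0.05, and they were chosen after their values were seen. Trav17 stood at 2.05%, 2.40% and 3.89% in CD4 and at 0.91%, 0.97% and 0.94% in the CD8 libraries, with a log2 fold change of use of -1.39 (SE 0.58, limma adjusted p = 0.245). Trav7-4 stood at 3.02%, 2.89% and 3.01% against 1.52%, 0.83% and 0.94%, with -1.38 (SE 0.56, limma adjusted p = 0.245). Both were higher in each CD4 library.

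Trav21-dv12 stood at 2.27%, 2.97% and 1.85% in CD4 and at 0.30%, 1.11% and 0.82% in the CD8 libraries, with a log2 fold change of use of -1.61 (SE 0.65, limma adjusted p = 0.245). Segments with dv in their name can also rearrange into the delta chain of gamma delta T cells, so a read of theirs need not come from an alpha chain. The summed markers of gamma delta T cells (6 of 6 genes in the table) ranged from 1028 to 1367 normalised reads in CD4 and from 788 to 1429 in the CD8 libraries, and Trdc, the delta constant region, from 366 to 504 and from 231 to 508, both overlapping. Their part in the use of the dv segments was not tested.

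Alpha profiles were compared in the same way. The Bray-Curtis distance of alpha shares averaged 15.4% within the CD4 libraries (3 pairs), 22.2% within the CD8 libraries (19.4% to 26.9%, 3 pairs) and 25.6% between the groups (23.2% to 28.2%, 9 pairs). The pair CD8 389 and CD8 395 was more distant than most pairs across groups, and CD8 389 had only 328 alpha reads. The mean between-group minus within-group distance was 6.78 percentage points (exact permutation p = 0.1, the smallest possible). Whether the alpha and beta distances differ was not tested, since the chains differ in read depth and number of segments.

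The number of segments in use overlapped between the groups. The effective number of segments, the exponential of the Shannon entropy of the shares, was 16.6 ± 0.34 for beta in CD4 and 16.7 ± 0.25 in the CD8 libraries, and 49.96 ± 1.39 and 49.9 ± 1.08 for alpha (SD, n = 3; exact permutation p = 0.6 and 1). The beta difference, CD8 minus CD4, was 0.137 over all segments, 0.506 when libraries were thinned to equal depth (exact permutation p = 0.3) and 0.464 over the segments with a mean value of at least 50 (exact permutation p = 0.1, the smallest possible). Between 64 and 66 alpha segments and between 22 and 23 beta segments had at least 1 read in each library. No single segment took over a library: the highest beta share was 13.4% and the highest alpha share 6.22%, that of Trav14n-3 in CD8 395.

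Levels of the segments leaned toward the CD4 libraries along with the rest of the receptor. The summed alpha segments came to 793, 1349 and 1095 normalised reads in CD4 385, 393 and 395, and to 303, 840 and 712 in CD8 389, 395 and 387 (exact permutation p = 0.2). The summed beta segments came to 1823, 3498 and 2847 against 996, 2262 and 2095 (exact permutation p = 0.3). For both chains CD8 389 was lowest and CD4 393 highest, and the groups overlapped. In sorted bulk samples, fewer T cells and less receptor RNA per cell cannot be told apart.

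Relative to the constant regions the groups overlapped. Alpha segments amounted to 21.4 ± 2.10 reads per 100 Trac reads in CD4 and 20.7 ± 4.43 in the CD8 libraries, and beta segments to 39.6 ± 3.23 and 38.8 ± 9.78 per 100 reads of Trbc1 and Trbc2 (SD, n = 3; exact permutation p = 0.8 and 0.9). The ratio of summed alpha to summed beta segments was 0.435, 0.386 and 0.385 in CD4 and 0.305, 0.372 and 0.340 in the CD8 libraries. These ranges did not overlap, with an exact permutation p of 0.1, the smallest possible.

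The limma test of the level called 0 of 35 alpha and 0 of 21 beta segments, where it called 0.49% of all genes; 12 alpha and 10 beta segments had an unadjusted p under 0.05. The median log2 fold change was -0.92 for the tested alpha and -0.84 for the tested beta segments, against 0.04 over all genes. The level was higher in all CD4 libraries for 14 of 35 alpha (40%) and 10 of 21 beta segments (47.6%), where 5.28% of all genes were so, and higher in all CD8 libraries for 0 of 35 and 0 of 21, where 4.93% of all genes were so. EdgeR called 0 segments, with 13 alpha and 10 beta segments at an unadjusted p under 0.05. DESeq2 called 3 alpha (Trav7-4, Trav17 and Trav14-3) and 4 beta segments (Trbv2, Trbv20, Trbv26 and Trbv31), all lower in CD8. Of the 13877 genes tested on the level, DESeq2 called 319 and edgeR 59. The share of all genes with an unadjusted p under 0.05 was not computed.

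On the level, Trbv31 had the lowest adjusted p of the beta segments. Its values were 126.7, 217.3 and 135.1 normalised reads in CD4 and 16.7, 53.5 and 38.6 in the CD8 libraries. The groups did not overlap, and the log2 fold change of the level was -2.21 (SE 0.46, limma adjusted p = 0.126; DESeq2 adjusted p = 0.000396). Trbv12-1 stood at 40.2, 86.9 and 52.1 against 69.4, 144 and 157.7, with overlapping ranges and a log2 fold change of 1.02 (SE 0.42, limma adjusted p = 0.805). Of the 21 beta segments tested, 6 had a level fold change above 0, and of the 35 alpha segments 5 had one.

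The constant regions, CD3 chains and joining segments of the alpha beta receptor had level fold changes below 0 that did not pass the test. Trac, the alpha constant region, had a log2 fold change of -0.83 (SE 0.50) and the beta constant regions Trbc1 and Trbc2 had -0.58 and -0.60. Those of the CD3 signalling chains Cd3d, Cd3e, Cd3g and Cd247 lay between -0.91 and -0.41, and limma called none of these 7 genes. All 14 tested of 47 alpha joining segments and all 14 beta joining segments had a fold change below 0, and limma called 0 of them. Gamma and delta variable segments were not lower throughout: 2 of 3 tested gamma and 1 of 4 tested delta segments had a fold change below 0, with medians of -0.06 and 0.30. Dntt, the enzyme that adds bases at the junctions in the thymus, had -0.05, and Rag1 and Rag2, which cut the segments, were not analysed here.

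Markers of dendritic cells differed between the groups. The 8 dendritic cell markers summed to between 3968 and 11702 normalised reads in CD4 and between 23723 and 35739 in the CD8 libraries, without overlap. The 10 T cell markers summed to between 20621 and 41357 and between 9487 and 32951, and the 7 macrophage markers to between 3786 and 21296 and between 4468 and 15891. The 6 erythroid markers summed to between 22344 and 43050 in CD4 and between 33575 and 57018 in the CD8 libraries. The 4 plasma cell markers summed to between 11862 and 14630 and between 9948 and 15352. CD8 389 had the lowest T cell and plasma cell sums and the highest erythroid sum. It also had the highest proliferation sum, 46793 against at most 24610 in the other libraries. Which cells the proliferation reads came from was not tested. The part of these cells in the levels and the use of the segments was not tested. When any 1 library was left out, the between-group minus within-group distance lay between 13.9 and 14.1 percentage points for beta and between 4.81 and 9.50 for alpha.

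Copies of the alpha segments deserve separate mention, since the mouse alpha locus carries near-identical repeats whose members are named with d or n. GENCODE M21 annotates 108 functional alpha segments, and 64 of them had a row here. Among these 64, a median of 55.9% of the 50-base stretches of a segment occurred in no other variable segment, and none lacked such a stretch. Among the 44 that were not analysed here, the median was 0% and 36 lacked such a stretch. With 100-base stretches, 0 of 64 and 35 of 44 lacked one. All 22 functional beta segments had a row, and each had at least 75% of its stretches unique.

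**Figure D5:**
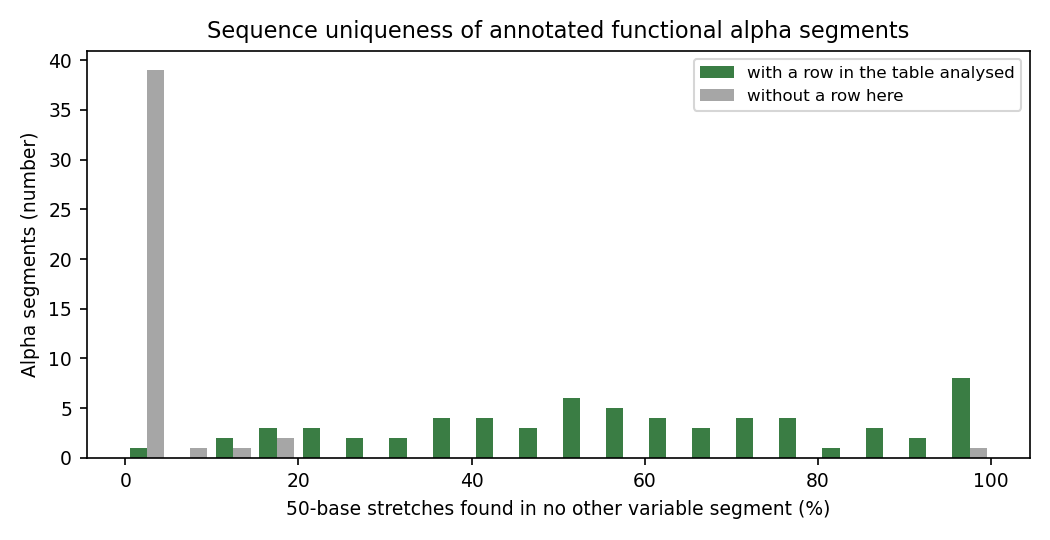
Number of functional alpha segments in the GENCODE M21 annotation (vertical axis) by the percentage of their 50-base stretches that occur in no other variable segment (horizontal axis), for the 64 with a row in the table analysed (green) and the 44 without a row here (grey). The highest grey bar is the lowest bin, which includes the 36 segments that have no stretch of their own.

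By name, 12 of 34 functional d copies, 10 of 28 n copies and 42 of 46 other segments had a row. Trav12d-1 and Trav12n-1 are 100% identical over the 243 bases compared. The alpha shares are therefore shares of what was counted, and a copy's share could hold reads of another copy. The n copies held 12.6% ± 1.38 of alpha reads in CD4 and 16.2% ± 0.61 in the CD8 libraries, and segments that are neither d nor n copies held 77.2% ± 0.44 and 74.0% ± 0.45 (SD, n = 3). The ranges did not overlap for either, with an exact permutation p of 0.1, the smallest possible. Since n copies, d copies and other segments add up to 100% of alpha reads, these differences are not independent. Trav16n, described above, is among the n copies; without it, in a comparison added after the data were seen, they held 10.2%, 11.3% and 9.43% in CD4 385, 393 and 395 and 11.0%, 13.7% and 10.0% in CD8 389, 395 and 387, which overlapped (exact permutation p = 0.5). The d copies held 10.1% ± 1.16 and 9.79% ± 0.71, which overlapped (exact permutation p = 0.6).

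Position along the locus was compared as well. When the members of each chain were divided in locus order into 3 sets of nearly equal number, the middle set of beta segments held 45.6% ± 1.65 in CD4 and 48.8% ± 1.30 in the CD8 libraries (SD, n = 3), with separate ranges and an exact permutation p of 0.1, the smallest possible. The ranges of the other beta sets and of all alpha sets overlapped. Segments higher in CD4 and in CD8 lay next to each other: Trbv14, Trbv16 and Trbv17 were higher in CD8, while Trbv15 between them was higher in CD4.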

How the data were processed

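RNA was sequenced from 3 CD4 and 3 CD8 sorted spleen samples. The authors deposited a signal per gene and library, read counts divided by a size factor. The submitters' processing notes name the GRCm39 build and the tools STAR (2.7.5c), featureCounts (2.0) and, without a version, DESeq2. No source used here gives the annotation, the strand setting or the treatment of reads that map to several places. Dividing the deposited signal by the value of 1 read gave whole reads for 100% of values within a tolerance of 0.001 reads; 0 columns belonged to no sample.

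Genes with a value of at least 10 in at least 3 libraries (13877 of 17832) were tested with limma 3.58.1 (R 4.3.3, mean-variance trend, log2(value + 1), two-sided, Benjamini-Hochberg over all genes tested, called at an adjusted p under 0.05), on the level and again after division of all genes by the summed alpha or beta segments of a library. EdgeR 4.0.16 (quasi-likelihood) and DESeq2 1.42.0 were run on the recovered reads. The fits were also run on simulated reads with known fold changes, and their recovery is not reported here. Values per library were compared with exact two-sided permutation tests over the 20 splits, whose smallest p is 0.1. Alternatives were pseudocounts of 0.5 and 5, no filter or a filter at 50, no trend, TMM and constant region scaling, and leaving out each library.

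The segments named are those called, the 6 of highest share per chain, up to 4 per direction with the largest difference in use and separate ranges at a mean value of at least 50, the most uneven, those of innate-like T cells and the lowest. The members and lists were chosen with earlier results of these data known. Sequences and segment classes come from GENCODE M21 (GRCm38), which matched 88 of 89 members, and locus order from RefSeq symbols; no coordinates are given because the builds differ. The cysteine codon was located as the last Tyr-X-Cys codon series near the 3′ end of a transcript.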

Additional observations from a re-analysis of the deposited data

How the results depend on the processing

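Depth limits the alpha segments most: the lowest library had 328 alpha reads. The count of segments called on the level was 0 for both chains except for 1 alpha segment without the limma trend and 3 alpha and 4 beta segments with DESeq2. On use it was 0 except for 1 beta segment with DESeq2 and 1 when only the segments were rescaled. Leaving out any 1 library gave 0 in every case. The cause was not tested.

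Differences near 0 changed sign. The effective number of alpha segments, CD8 minus CD4, lay between -0.897 and 0.479 without 1 library and was 1.02 when libraries were thinned to equal depth. That of beta segments lay between -0.0512 and 0.283, and the share of d copies between -1.01 and 0.0751 percentage points. The log2 difference of the summed beta segments was 0.0394 after constant region scaling. Without 1 library, the log2 fold change of use lay between -0.167 and 0.0932 for Trav14-1, between -0.360 and 0.110 for Trav14n-3 and between -0.0493 and 0.199 for Trbv13-1. For Trav14n-3 it was 0.0101 with DESeq2 and 0.0079 with edgeR. The log2 fold change of the level lay between -0.792 and 0.327 for Trav12-2, between -0.255 and 0.430 for Trav16n, between -0.380 and 0.378 for Trbv12-2 and between -0.565 and 0.184 for Trbv16. After constant region scaling it was 0.302 for Trav12-2, 0.0293 for Trav13-1, 0.119 for Trbv13-1 and 0.453 for Trbv16, and with edgeR it was -0.0048 for Trbv12-2.

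The sums without 1 library lay between -1.18 and -0.45 (alpha) and between -0.91 and -0.27 (beta) on the log2 scale, and the alpha distance difference between 4.81 and 9.50 percentage points. No alpha segment had a mean value of 50 or more, so the alternatives restricted to such segments were not run for alpha. No paired analysis was possible because the groups share only 1 label number.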
